A study of Mus musculus with 2 samples.

Results

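The genes described here are C-type lectin receptors of myeloid cells: Cd209a, Cd209c, Cd209d, Clec10a, Mgl2, Clec4d, Clec4e, Clec4n, Clec7a and Cd207. They were taken by symbol from the gene table of a single-cell RNA-seq experiment, and 9 of the 10 listed genes matched 1 of its 32285 genes each. Clec7a is not analysed here. The cells were CD45+ immune cells sorted from Liberase-digested, full-thickness mouse skin. Control skin at day 0 was compared with skin at day 2 after a challenge with DPCP (diphenylcyclopropenone, a contact sensitizer). Both conditions were tagged, pooled and run as 1 sample, so that each condition is 1 tagged sample without a replicate. Strain, sex, age, the number of animals behind each tag and any treatment of the control skin are not given in the sources used here.

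C-type lectin receptors are surface proteins that bind sugars and lipids of microbes and of damaged cells through a shared calcium-dependent fold. Clec4e (Mincle), Clec4d (MCL) and Clec4n (Dectin-2) pair with the Fc receptor gamma chain (Fcer1g), which recruits the kinase Syk and the adaptor Card9 and drives NF-kappaB and cytokine genes. The Cd209 genes are mouse relatives of human DC-SIGN, Clec10a and Mgl2 encode receptors for galactose and N-acetylgalactosamine that are used as markers of dermal dendritic cells and macrophages, and Cd207 encodes langerin, the receptor of the Birbeck granules of Langerhans cells.

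The 9 genes lie in 3 chromosome groups (mm10, GENCODE M21 annotation, whole gene spans). On chromosome 6, Clec4n (123229843 to 123247021, + strand), Clec4d (123262111 to 123275265, + strand) and Clec4e (123281789 to 123289870, − strand) are neighbours, and Cd207 (83671215 to 83677857, − strand) lies apart. On chromosome 8 lie Cd209a (3743397 to 3748984), Cd209d (3871824 to 3878555) and Cd209c (3940222 to 3954746), all on the − strand. On chromosome 11 lie Mgl2 (70130329 to 70137550) and Clec10a (70156197 to 70170834), both on the + strand. Of the 50-base windows in the last 500 transcript bases of Clec10a, where 3′ reads fall, 20.4% also occur in Mgl2. Reads from these windows fit both genes. Of the Mgl2 windows 4.21% occur in other genes, among them Colec12, and the Cd209 genes shared none with each other.

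The 200 bases before the RefSeq start (GRCm38.p6, 5′ to 3′ on the gene's strand) are printed for 4 genes: the neighbours Clec4d and Clec4e, whose UMIs were higher together in DPCP, the Langerhans cell gene Cd207, and Cd209a, lower in DPCP. The windows are chr6:123261907-123262106 for Clec4d, chr6:123289872-123290071 for Clec4e, chr6:83677858-83678057 for Cd207 and chr8:3748985-3749184 for Cd209a.
Clec4d: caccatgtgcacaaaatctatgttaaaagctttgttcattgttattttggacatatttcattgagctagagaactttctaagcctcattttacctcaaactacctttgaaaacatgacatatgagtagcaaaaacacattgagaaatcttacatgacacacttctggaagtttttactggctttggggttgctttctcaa
Clec4e: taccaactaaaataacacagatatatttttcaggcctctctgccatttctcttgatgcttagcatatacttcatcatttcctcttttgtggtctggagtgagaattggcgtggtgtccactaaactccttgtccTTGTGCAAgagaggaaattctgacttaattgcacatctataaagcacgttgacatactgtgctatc
Cd207: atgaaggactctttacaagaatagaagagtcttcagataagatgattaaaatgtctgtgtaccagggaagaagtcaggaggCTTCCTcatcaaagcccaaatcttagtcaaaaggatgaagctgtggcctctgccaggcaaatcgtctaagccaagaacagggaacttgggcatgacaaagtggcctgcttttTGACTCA
Cd209a: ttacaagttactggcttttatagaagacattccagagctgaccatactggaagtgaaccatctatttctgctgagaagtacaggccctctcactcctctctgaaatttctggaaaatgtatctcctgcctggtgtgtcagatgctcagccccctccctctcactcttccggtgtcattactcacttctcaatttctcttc
Capitals mark matches, on either strand, to letters of binding motifs of myeloid transcription factors. The motifs were C/EBP (TTGCNNAA), AP-1 (TGANTCA), PU.1 (AGGAAG) and NF-kappaB (GGG and CC with 5 bases between them), and no match overlapped another in the printed windows. In Clec4e the capitals are a C/EBP match, TTGTGCAA, 66 bases before the start. In Cd207 they are a PU.1 match, CTTCCT, 119 bases before it, and an AP-1 match, TGACTCA, 7 bases before it. Clec4d and Cd209a held none of these letters in this window. Of 32851 RefSeq promoters of this length, 7.47% held the C/EBP letters, 5.48% AP-1, 24.7% PU.1 and 41.4% NF-kappaB. A match is a description of letters and no evidence of binding.

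After filtering, 4967 control and 7588 DPCP cells remained, with medians of 8797 and 4728.5 UMIs (unique molecular identifiers, that is, counted mRNA molecules). A mitochondrial limit removed 20.8% of control and 3.53% of DPCP barcodes. The conditions shared 0 cell barcodes, but the control tag held 13.9% of the tag UMIs of DPCP barcodes and the DPCP tag 2.18% of those of control barcodes. Neutrophil-like cells made up 2.19% of control and 60.9% of DPCP cells. Neutrophil RNA was found in other classes: in 23.9% of DPCP T cell-like cells, S100a8 and S100a9, genes of neutrophils, had more than 19 UMIs together. Ratios are therefore also given without such cells. Levels are counts per 1000000 UMIs (CPM) summed over the cells of a class, and are not scaled by gene length, so they are compared within a gene and not between genes. Intervals are 95% and cover counting error only. A ratio is called higher or lower when it is at least 2-fold, its interval excludes 1 and the gene has at least 50 UMIs. These calls are no test of the conditions.

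Over all kept cells, the Syk-coupled receptors and Cd207 were higher in DPCP and most of the Cd209 and galactose-binding receptors were lower. Clec4d, Clec4e, Clec4n and Cd207 were called higher, and Cd209a, Cd209c, Cd209d and Mgl2 lower. Across all tested genes 14.3% were called higher and 10.0% lower. The median log2 ratio was −0.999 over the 9 members and −0.17 over all tested genes.

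Clec4d stood at 25.8 CPM in control (1337 UMIs) and 973 CPM in DPCP (51702 UMIs), a ratio of 37.7 (35.7 to 39.8). Clec4e was at 25.0 and 586 CPM, a ratio of 23.4 (22.1 to 24.7), and Clec4n at 9.98 and 264 CPM, a ratio of 26.5 (24.2 to 28.9). These 3 ratios are the highest of the family. Cd207 was at 9.81 and 21.2 CPM, a ratio of 2.16 (1.94 to 2.40). Its call depends on the weighting of cells: with each cell's CPM averaged, its log2 ratio was 0.08 instead of 1.11. Cd209a was lower, at 161.3 and 50.4 CPM, or 0.313 times the control level (0.299 to 0.326), and Mgl2 at 190.3 and 50.2 CPM, or 0.264 times (0.253 to 0.275). Cd209c, at 13.3 and 5.33 CPM, and Cd209d, at 29.7 and 11.5 CPM, stood at 0.402 and 0.388 of control. Clec10a, at 107 and 53.7 CPM, lay at the edge of the threshold with 0.5003 (0.478 to 0.524) and was not called.

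These totals mix levels within classes with the number of cells of each class. If each of the 13 classes and clusters with at least 50 cells in both conditions had kept its control level and taken its DPCP share of UMIs, Clec4d would have stood at 416 CPM, against 26.4 CPM observed in control and 1008 CPM in DPCP over the same classes. For Clec4e these values were 149, 25.1 and 603 CPM, and for Clec4n 34.1, 10.2 and 278 CPM. Control levels at DPCP weights thus came closer to the DPCP value for Clec4d than for Clec4n. For Cd209a the values were 75.1, 162 and 51.2 CPM, and for Mgl2 78.4, 192 and 53.7 CPM. For Clec10a, 54.3 CPM from control levels stood beside 53.9 CPM observed in DPCP, and for Cd209d 9.59 beside 9.87 CPM. Cd207 gave 26.3 CPM against 23.1 CPM observed in DPCP. This arithmetic describes the pool and takes the class borders as given.

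**Figure D1:**
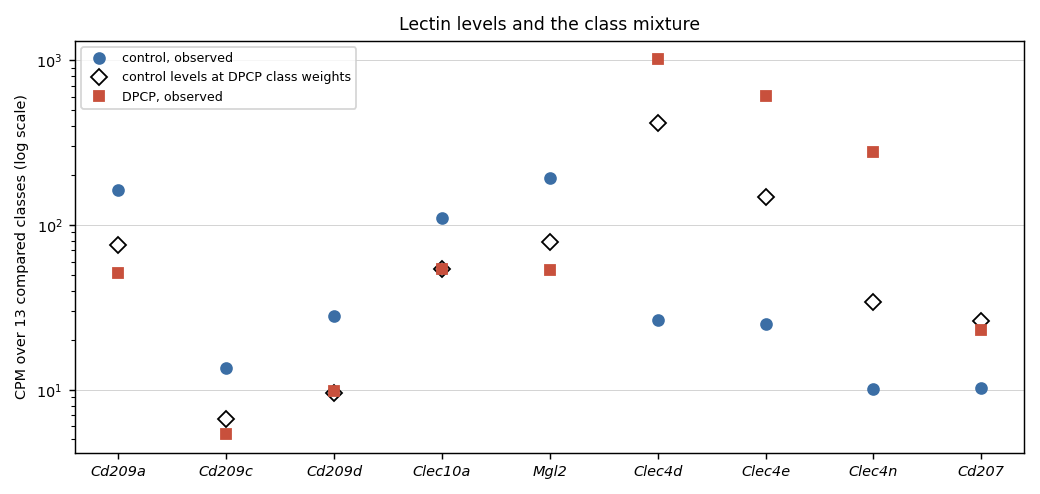
Level of each receptor gene (CPM, log axis) over the 13 classes and clusters with at least 50 cells in both conditions: observed in control, with control levels at DPCP class weights, and observed in DPCP. For Clec10a, Cd209d and Cd207 the weighted value lies near the DPCP value, and for Clec4n it lies at 34.1 CPM against 278 CPM.

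In DPCP, neutrophil-like cells held 39.7% of all UMIs but 83.6% of the Clec4d UMIs (83.3 to 83.9), 79.6% of the Clec4e UMIs (79.2 to 80.1) and 64.6% of the Clec4n UMIs (63.8 to 65.4). Clec4n was spread more widely, with 10.48% in Langerhans cell-like cells, which held 3.41% of all UMIs, and 10.0% in macrophage-like cells. Unnamed cluster 14, 2 control and 238 DPCP cells, held 4.60% of the DPCP Clec4d and 5.17% of the DPCP Clec4e UMIs. Of its DPCP cells 94.1% held neutrophil RNA. In control, where neutrophil-like cells held 0.558% of all UMIs, they still held 19.7% of the Clec4d UMIs. Cd207 UMIs lay in Langerhans cell-like cells, 79.5% in control (75.8 to 83.0) and 80.6% in DPCP (78.2 to 82.9). Conventional dendritic cell type 2-like cells held 66.4% of control (65.4 to 67.4) and 45.9% of DPCP (44.0 to 47.8) Cd209a UMIs, and 71.0% and 47.7% of those of Cd209c. Their part of the Cd209d UMIs was 45.5% in control and 25.0% in DPCP, where macrophage-like cells held 22.2% and plasmacytoid dendritic cell-like cells 19.1%. Mgl2 (38.8% and 31.6%) and Clec10a (33.6% and 25.5%) had lower control shares in that class than the Cd209 genes.

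**Figure D2:**
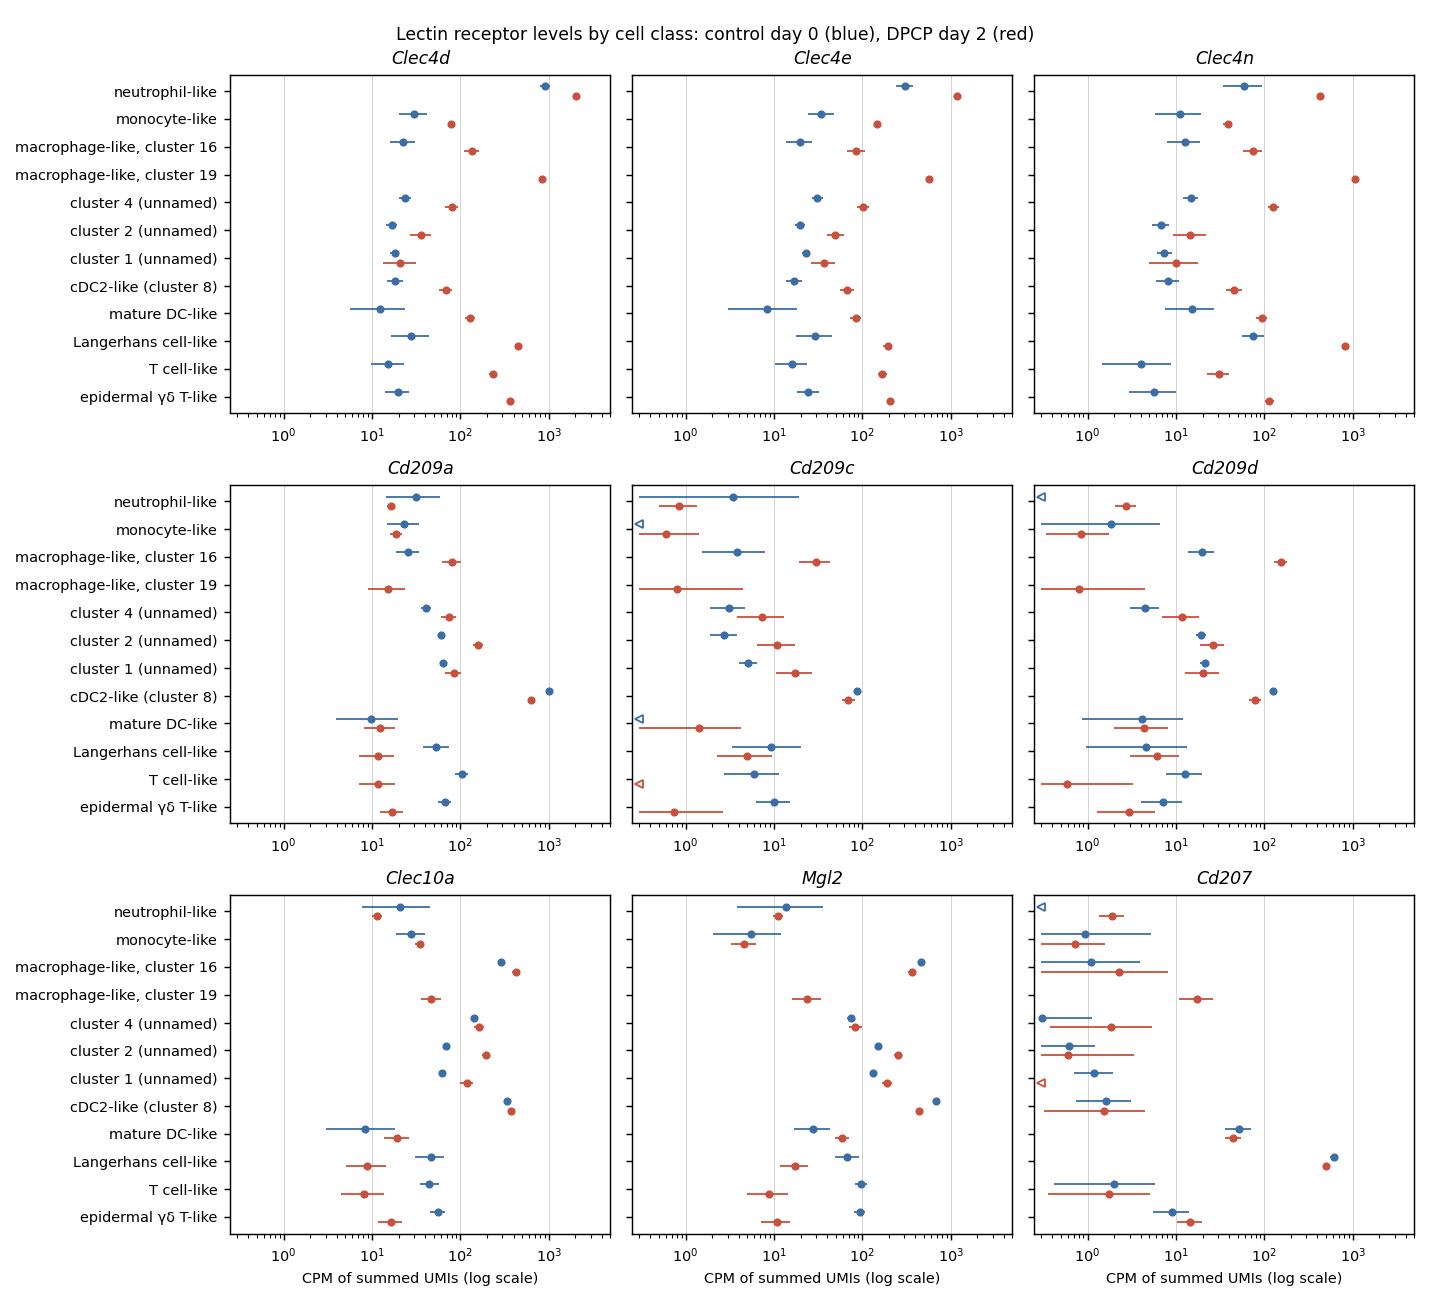
Level of each receptor gene (CPM, log axis) by cell class in control and DPCP. Circles are groups of at least 50 cells (control blue, DPCP red), open triangles groups with 0 UMIs, and bars 95% Poisson intervals, cut at the left edge where they run on. Cd207 stands highest in Langerhans cell-like cells (620 and 501 CPM) and Clec4d in neutrophil-like cells.

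Neutrophil-like cells numbered 109 in control and 4620 in DPCP. Clec4d stood at 911 CPM in control (263 UMIs) and 2049.6 CPM in DPCP, a ratio of 2.25 (1.99 to 2.55). Clec4e stood at 301 and 1174.9 CPM, a ratio of 3.90 (3.16 to 4.87), and Clec4n at 58.9 CPM (17 UMIs) and 430.0 CPM, a ratio of 7.30 (4.56 to 12.5). All 3 were called higher in this class, where 5.91% of tested genes were called higher and 7.98% lower. The median log2 ratio was 0.43 over the 7 members tested and −0.09 over all tested genes.

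The control class is narrower than the DPCP class, with 103 of its 109 cells in cluster 3. Within that cluster no member was called (3.19% of its genes were called higher and 3.76% lower). Clec4d was at 854 and 991 CPM there (ratio 1.16), Clec4n at 64.5 and 88.1 CPM (1.36), and Clec4e at 296 and 576 CPM (1.94, 1.55 to 2.47). Thus the class ratios of Clec4d and Clec4n came mostly with clusters that held few or no control cells.

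Among the 6 DPCP neutrophil-like clusters the Syk-coupled receptors differed in their range. Clec4n ran from 21.2 CPM in cluster 7 and 88.1 CPM in cluster 3 to 426 CPM in cluster 10, 596 in cluster 0, 839 in cluster 15 and 869 in cluster 6. Clec4d ran over a narrower range, from 991 CPM in cluster 3 and 1027.7 in cluster 7, through 1936 in cluster 15, 1995 in cluster 10 and 2735 in cluster 6, to 2989 in cluster 0. Clec4e was lowest in clusters 3 (576 CPM) and 7 (577 CPM) and highest in cluster 0 (1824 CPM), with 1033 CPM in cluster 10, 1327 in cluster 6 and 1646 in cluster 15. Clusters 3 and 7 were thus the lowest for all 3 genes, and clusters 6 and 15 lay side by side at the top for Clec4n. The clusters were cut from the same cells, and no test separates them.

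**Figure D3:**
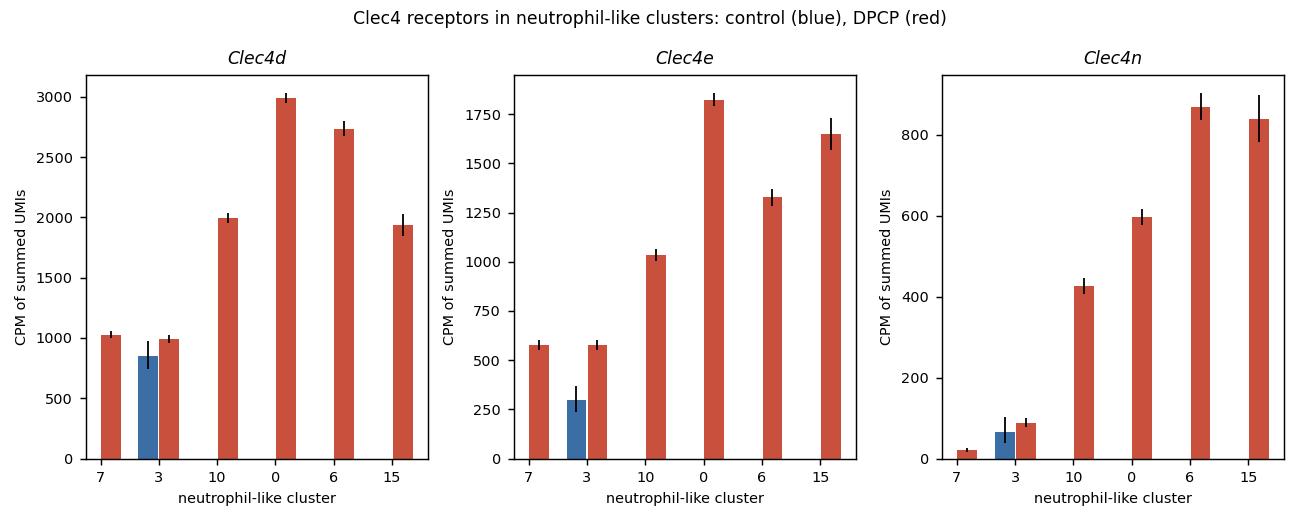
Levels of Clec4d, Clec4e and Clec4n (CPM, linear axes from 0, each gene on its own scale) in each neutrophil-like cluster. Bars are summed UMIs of control (blue, drawn for cluster 3 alone) and DPCP (red) with 95% Poisson intervals. In DPCP, Clec4n spans 21.2 to 869 CPM and Clec4d 991 to 2989 CPM.

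The shares of cells with a UMI, each cell thinned to 1000 UMIs, showed the same order of genes. Thinning left out 7 control and 53 DPCP neutrophil-like cells. Of the remaining DPCP cells 77.3% held Clec4d, 55.9% Clec4e and 25.5% Clec4n (24.2 to 26.7), against 51.0%, 25.5% and 6.86% (2.80 to 13.6) in control. The unthinned shares were 95.9%, 84.1% and 47.7% in DPCP (median depth 3778 UMIs) and 74.3%, 44.0% and 11.01% in control (2662 UMIs). T cell-like cells, taken as background, gave 17.0%, 13.5% and 2.84% thinned in DPCP (median depth 9685.5 UMIs) and 3.25%, 3.25% and 0.649% in control (7374 UMIs). Clec4d thus stood above this background in both conditions. By DPCP cluster the thinned Clec4n share was 2.24% in cluster 7, 6.26% in cluster 3, 31.4% in cluster 10, 35.9% in cluster 0, 42.1% in cluster 15 and 44.1% in cluster 6. The cluster 7 share is at or below the T cell-like background. Among thinned DPCP neutrophil-like cells, Clec4n was found in 28.8% of those with a Clec4d UMI and 14.1% of those without.

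Langerhans cell-like cells, 56 in control and 122 in DPCP, were named from genes such as Epcam and Cldn1, and Cd207 was used neither for naming nor for clustering. Cd207 was at 620 CPM in control (404 UMIs) and 501 CPM in DPCP (908 UMIs), a ratio of 0.808 (0.717 to 0.910). Of these cells 37.5% and 32.0% held a Cd207 UMI after thinning, which left out 0 cells, and 96.4% and 81.1% before it (median depths 9895.5 and 13683.5 UMIs). T cell-like cells gave 0.649% in control and 0.709% in DPCP thinned, so the label holds for the defining lectin.

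In the same cells Clec4n was at 75.2 CPM in control (49 UMIs) and 811 CPM in DPCP (1470 UMIs), a ratio of 10.8 (8.11 to 14.6). Clec4d was at 27.6 CPM (18 UMIs) and 455 CPM (824 UMIs), a ratio of 16.4 (10.3 to 27.9), and Clec4e at 29.2 CPM (19 UMIs) and 193 CPM (350 UMIs), a ratio of 6.62 (4.17 to 11.1). These 3 were called higher and Cd209a (53.7 and 11.6 CPM, ratio 0.216) and Mgl2 (67.6 and 17.1 CPM, ratio 0.253) lower, where 12.4% of tested genes were called higher and 8.76% lower. Control T cell-like cells held more Cd209a (104 CPM) and Mgl2 (96.9 CPM), which were lower in DPCP there too (ratios 0.113 and 0.0904). Thinned, 0 of 56 control Langerhans cell-like cells held Cd209a and 4 held Mgl2. Without cells holding neutrophil RNA, Cd209a had under 50 UMIs, and Mgl2 kept its call. The median log2 ratio was 1.21 over 6 members tested and 0.11 over all tested genes. After thinning 8.93% of control cells (2.96 to 19.6) held Clec4n against 39.3% of DPCP cells (30.6 to 48.6), and unthinned 33.9% and 74.6%, against 0.649% and 2.84% of thinned T cell-like cells. The thinned DPCP share was 26.2% for Clec4d, against 17.0% in T cell-like cells. For Clec4e it was 13.9%, close to the 13.5% of the T cell-like background. The 10% of DPCP cells richest in Clec4n held 46.4% of the Clec4n UMIs, and the median cell held 4.5.

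Markers of other cells moved with this result. The summed level of the 9 neutrophil markers was 1961 CPM in control, beside 4176 CPM in DPCP Langerhans cell-like cells, with 0 of 9 at 0 in either condition. That of the 11 macrophage markers was 993 CPM, with 2 of 11 at 0, and 4334 CPM. Without cells that held neutrophil RNA, Clec4n was at 75.7 and 892 CPM (ratio 11.8), Clec4d at 20.5 and 367 CPM (17.9) and Clec4e at 29.96 and 148 CPM (4.95). For each 1000 UMIs of S100a8 and S100a9, DPCP Langerhans cell-like cells held 238 Clec4n UMIs and neutrophil-like cells 4.93, and for Clec4d the values were 133 and 23.5. The part of macrophage RNA was not tested. Among thinned DPCP Langerhans cell-like cells, 31.3% of those with Clec4n and 32.4% of those without it held Cd207.

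**Figure D4:**
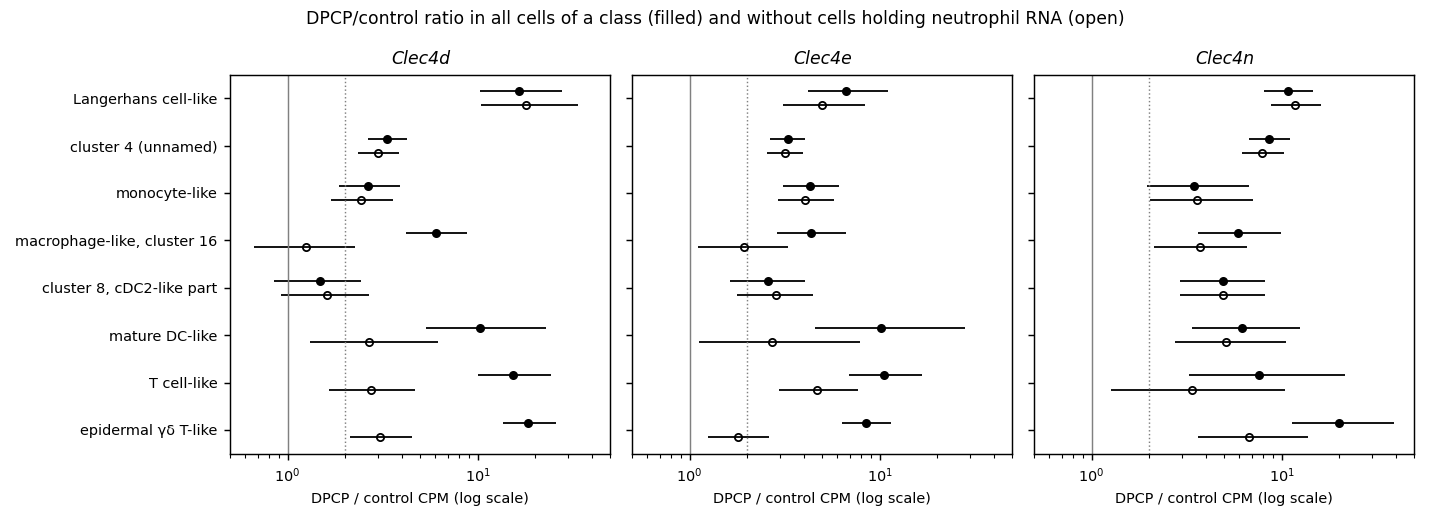
DPCP over control ratio (log axis) of Clec4d, Clec4e and Clec4n by class, with all cells (filled) and without cells (open) holding more than 19 S100a8 and S100a9 UMIs. Bars are 95% counting intervals, the solid line is a ratio of 1 and the dotted line 2-fold. The T cell-like Clec4d ratio goes from 15.3 to 2.75, and the Langerhans cell-like Clec4n ratio from 10.8 to 11.8.

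T cell-like cells show how large the background was. Clec4d had 15.4 CPM in control there and 235 in DPCP (ratio 15.3), and a ratio of 2.75 without cells holding neutrophil RNA. Clec4e went from a ratio of 10.5 to 4.68, and Clec4n, at a ratio of 7.57, had under 50 UMIs without them. In the gamma-delta T cell-like class of the epidermis the Clec4d ratio was 18.5 with and 3.08 without such cells, and the Clec4e ratio 8.44 and 1.80. Clec4n went from 20.04 to 6.75 there. These 3 were called higher and Cd209a, Clec10a and Mgl2 lower in that class, where 6.25% of genes were called higher and 4.21% lower. In T cell-like cells the summed S100a8 and S100a9 level was 509 CPM in control and 9776 in DPCP. Clec4d, Clec4e and Clec4n were called higher in T cell-like cells and Cd209a (104 and 11.7 CPM), Clec10a (44.8 and 8.18 CPM) and Mgl2 (96.9 and 8.76 CPM) lower. There 4.36% of genes were called higher and 3.07% lower. Of the control T cell-like cells, the richest 10% held 98.1% of the 155 Cd209a UMIs, and 1 cell held 47.

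Macrophage-like cells, 196 in control and 204 in DPCP, fell into clusters of different makeup. As a class they had Clec4d (ratio 26.1), Clec4e (21.1), Clec4n (40.7) and Cd209d (3.92) called higher and Mgl2 lower (382 and 161 CPM), where 8.89% of genes were called higher and 5.18% lower. The class ratios mix clusters that differ in their share of control cells. Cluster 19, led by Mmp12, Gpnmb and Arg1, held 127 DPCP and 0 control cells, so no ratio exists. Its levels were 1070.4 CPM for Clec4n, 839.6 CPM for Clec4d and 569.8 CPM for Clec4e, and 1177, 717 and 426 CPM without cells holding neutrophil RNA. After thinning, 59.5% (50.4 to 68.2) of its cells held Clec4n, 47.6% Clec4d and 34.1% Clec4e, above the T cell-like shares, and unthinned 90.6%, 86.6% and 71.7% did. Its Clec4n level was the highest of the DPCP classes and clusters named here, above Langerhans cell-like cells (811 CPM) and neutrophil-like cluster 6 (869 CPM). Clec10a (47.0 CPM), Mgl2 (23.9 CPM) and Cd209a (15.1 CPM) were low there beside their levels in cluster 16.

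Cluster 16, with 158 control and 73 DPCP cells, was led by Folr2, Lyve1 and Cd209f. Cd209d stood there at 19.7 CPM in control (36 UMIs) and 154 CPM in DPCP (135 UMIs), a ratio of 7.82 (5.38 to 11.6). Cd209a stood at 25.7 CPM (47 UMIs) and 79.8 CPM (70 UMIs), a ratio of 3.11 (2.12 to 4.60). Both are opposite in direction to the same genes over all cells. Few cells carried this: 76.3% of the DPCP Cd209d UMIs lay in the 10% of cells with most, with up to 24 in 1 cell, and the thinned share with a UMI was 3.82% (1.42 to 8.13) in control and 10.96% (4.85 to 20.5) in DPCP, with overlapping intervals. Unthinned it was 12.0% and 27.4%, and T cell-like cells gave 2.60% and 0% thinned. With each cell's CPM averaged, the log2 ratio of Cd209a was 0.58 and it was no longer called. Clec4d (22.4 and 135 CPM), Clec4e (19.7 and 85.5 CPM) and Clec4n (12.6 and 74.1 CPM) were called higher too, where 3.11% of genes were called higher and 2.46% lower. Without cells holding neutrophil RNA their ratios were 1.25, 1.92 and 3.71, so that only Clec4n of these 3 kept its call, while Cd209d was at 7.39 and Cd209a at 3.22. Clec10a, at 290 and 425 CPM, had a ratio of 1.47 (1.28 to 1.68) and Mgl2, at 465 and 365 CPM, one of 0.784 (0.688 to 0.893).

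Monocyte-like cells, 140 in control and 676 in DPCP, had lower levels of the Syk-coupled receptors than neutrophil-like cells in both conditions. Clec4e was at 34.3 and 147 CPM, a ratio of 4.28 (3.09 to 6.11), Clec4n at 11.1 and 38.5 CPM, a ratio of 3.47 (1.96 to 6.78), and Clec4d at 29.6 and 78.6 CPM, a ratio of 2.65 (1.86 to 3.91). Without cells holding neutrophil RNA the ratios were 4.03, 3.61 and 2.43. The T cell-like background gave 4.68, 3.38 (under 50 UMIs) and 2.75 without such cells. Its DPCP levels were then 75.1, 13.6 and 42.3 CPM, beside 139, 40.3 and 72.3 CPM in monocyte-like cells. Of 675 thinned DPCP monocyte-like cells, 103 held Clec4e, 21 Clec4n and 54 Clec4d, beside 19, 4 and 24 of 141 T cell-like cells. As a share of cells, Clec4d thus lay below this background, and Clec4e and Clec4n lay close to it. All 3 genes were called higher in monocyte-like cells, where 4.08% of genes were called higher and 3.08% lower. Cluster 4, 735 control and 163 DPCP cells, passed 10 of 11 macrophage markers but stayed unnamed because genes of another class led it. At a finer clustering (Leiden resolution 2), a group also led by Siglec1 and Ly6c2 held 524 control and 14 DPCP cells. The makeup of cluster 4 may thus differ between the conditions, and its part in the ratios was not tested. Cluster 4 had Clec4n at 14.8 and 127 CPM, a ratio of 8.58 (6.71 to 11.1). Its S100a8 and S100a9 level was 796 CPM in control, beside 816 CPM in DPCP, and the Clec4n ratio was 7.92 without cells holding neutrophil RNA. Clec4d (23.8 and 79.9 CPM) and Clec4e (30.9 and 101 CPM) were also called higher there, where 3.93% of genes were called higher and 4.40% lower.

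Conventional dendritic cell type 2-like cells, 593 in control and 156 in DPCP, carried the highest Cd209a and Cd209c levels. Cd209a was at 1002 CPM in control against 634 CPM in DPCP, a ratio of 0.633 (0.594 to 0.673). Mgl2 was at 690 and 434 CPM (0.629), Cd209d at 126 and 78.9 CPM (0.625) and Cd209c at 88.2 and 69.6 CPM (0.789). Clec10a was at 338 and 376 CPM (1.11). None of these 5 was called, and 3.78% of genes were called higher and 4.48% lower. Thinned, 49.4% of control cells (45.3 to 53.5) held Cd209a, beside 34.0% of DPCP cells (26.6 to 42.0), against 3.25% and 0.709% of T cell-like cells, and unthinned 77.1% and 69.9% did. Clec4d (18.3 and 68.1 CPM), Clec4e (16.8 and 67.0 CPM) and Clec4n (8.13 and 45.9 CPM) were called higher here. Without cells holding neutrophil RNA their ratios were 1.42, 2.38 and 4.55, so that the Clec4d call was lost. T cell-like cells gave 2.75, 4.68 and 3.38 (under 50 UMIs) without such cells. Thinned, 5.77% of DPCP cells of the class held each of the 3 genes, beside 17.0%, 13.5% and 2.84% of T cell-like cells.

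The class changed in makeup. At a finer clustering it held a part with type 1 dendritic cell genes (Xcr1, Clec9a), 44 control and 88 DPCP cells, and a part with type 2 genes, 530 and 66 cells. Within the type 2 part Cd209a was at 1082 and 950 CPM, a ratio of 0.878 (0.809 to 0.952), Cd209d at 136 and 120 CPM (0.883) and Cd209c at 97.0 and 103 CPM (1.06). Mgl2, at 751 and 985 CPM, had a ratio of 1.31 (1.21 to 1.42) and Clec10a, at 375 and 669 CPM, one of 1.78 (1.61 to 1.97). By summed UMIs, Mgl2 thus lay below control in the whole class and above it in the type 2 part. Few cells weighed heavily: in the whole class the richest 10% held 48.1% of the control and 76.0% of the DPCP Mgl2 UMIs. Thinned, Mgl2 was found in 212 of 524 control and 21 of 66 DPCP cells of the type 2 part. The share of cells with Mgl2 was thus not higher in DPCP in the type 2 part. Clec4n (8.10 and 40.0 CPM, 4.94, 2.94 to 8.21) and Clec4e (15.4 and 40.0 CPM, 2.60, 1.62 to 4.06) were the members called there, where 2.38% of genes were called higher and 3.59% lower. DPCP T cell-like cells without neutrophil RNA held Clec4n at 13.6 CPM and Clec4e at 75.1 CPM. The Clec4e level of the type 2 part thus lay below this background. In the type 1 part, Cd209a was at 130 CPM in control against 407 CPM in DPCP, and Clec10a had 1 UMI in control and 250 UMIs in DPCP (208 CPM), with too few control cells for a ratio. After thinning, 27.3% of the DPCP cells of that part held Cd209a, 10.2% Clec10a and 1.14% Mgl2, against 0.709% of DPCP T cell-like cells for each.

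Detection of the galactose-binding pair in the same cells differed between groups. Among thinned control cells of the type 2 part, Mgl2 was found in 30.1% of those with a Clec10a UMI and 44.0% of those without. In control cells of macrophage-like cluster 16 the order was the other way, with Mgl2 in 54.8% of cells with Clec10a and 27.8% of those without. In DPCP cells of cluster 16 the shares were 17.6% (of 17 cells) and 23.2%, and in those of the type 2 part 28% and 34.1%. The order thus differed between these groups in control alone. In control cells of the type 2 part Mgl2 was found in 73.2% of cells with Cd209d and 36.5% of those without. Mature dendritic cell-like cells, 58 in control and 124 in DPCP, had Mgl2 at 27.7 CPM (20 UMIs) and 58.8 CPM (123 UMIs), a ratio of 2.13 (1.32 to 3.60), a call lost under 6 of the alternative settings. Clec4n, at 15.2 and 93.8 CPM (6.16), Clec4d (10.3) and Clec4e (10.1) were also called higher there, with 10.3% of genes called higher and 3.85% lower. Without cells holding neutrophil RNA, Clec4n was at 5.11 and Clec4d at 2.68, and Clec4e had under 50 UMIs. Plasmacytoid dendritic cell-like cells, 50 in DPCP, held Cd209d at 204 CPM, the highest DPCP level of the classes and clusters, Cd209a at 167 CPM and Clec10a at 134 CPM, and 20% of them held Cd209d after thinning.

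**Figure D5:**
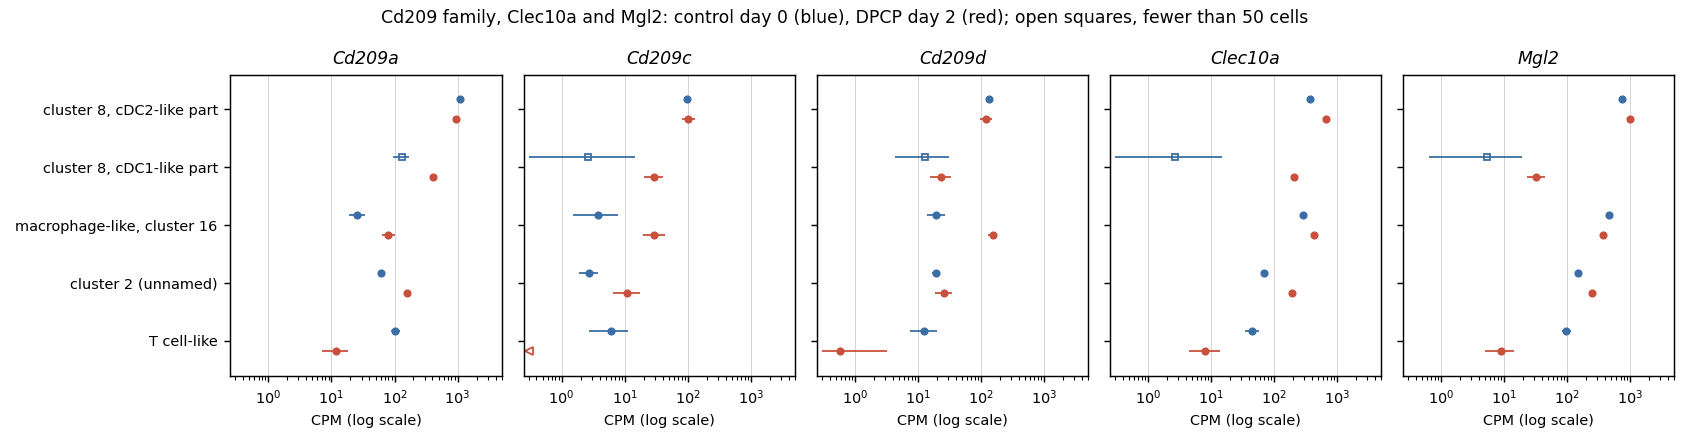
Levels of Cd209a, Cd209c, Cd209d, Clec10a and Mgl2 (CPM, log axis) in dendritic and macrophage groups, unnamed cluster 2 and T cell-like cells, control (blue) and DPCP (red). Filled circles are groups of at least 50 cells, open squares groups of fewer, the open triangle 0 UMIs, and bars 95% Poisson intervals, cut at the left edge where they run on. In macrophage-like cluster 16 Cd209d lies at 19.7 and 154 CPM, and in the finer type 2 part Clec10a lies at 375 and 669 CPM.

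Unnamed cluster 2, 1081 control and 132 DPCP cells, had Clec10a at 68.4 and 196 CPM (ratio 2.86), Cd209a at 60.7 and 158 CPM (2.61, 2.26 to 3.01) and Cd209c at 2.73 and 10.9 CPM (4.005, on 35 and 18 UMIs). Clec4d (2.14), Clec4e (2.52) and Clec4n (2.15) were called higher as well, with 2.43% of genes called higher and 1.84% lower. The Cd209 ratios depended on the clustering: with the members among the clustering genes the log2 ratio of Cd209c was −0.73 instead of 2.00, and that of Cd209a 0.23. In cluster 11, 58 control and 358 DPCP cells, Clec4d (393 and 1022 CPM), Clec4e (177 and 584 CPM), Clec4n (21.1 and 322 CPM) and Clec10a (21.1 and 81.8 CPM) were called higher, where 9.39% of genes were called higher and 2.49% lower. Its control values of Clec4n and Clec10a rest on 5 UMIs each, and 100% of the DPCP Clec10a UMIs lay in the 10% of cells with most. In cluster 11, 27.6% of control and 50% of DPCP cells held neutrophil RNA, and without them 42 control cells, too few for a ratio, held 1 Clec10a UMI and 179 DPCP cells held 7. Cluster 1 had 1 member called, Cd209c (5.14 and 17.3 CPM), with 2.21% of genes called higher and 1.87% lower, and cluster 12 had Clec4e (44.9 and 110 CPM), with 1.56% and 2.35%.

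The signalling genes behind the receptors differed less than the receptors. Of the listed adaptors and kinases reported here, Fgr (ratio 2.42) and Malt1 (2.09) were called higher over all kept cells and 0 were called lower. Of all tested genes 14.3% were called higher and 10.0% lower. Fcer1g, the chain that Clec4d, Clec4e and Clec4n need, was at 1180 CPM in control against 1531 CPM in DPCP (1.30), and Syk at 414 and 550.3 CPM (1.33). In neutrophil-like cells 2 of 22 tested were called higher (5.91% of all genes), the NF-kappaB subunit genes Rel (2.01) and Nfkb1 (2.55), and 0 lower (7.98%). In Langerhans cell-like cells 2 of 22 tested were called higher (12.4% of all genes), Malt1 (2.44) and Rela (2.70). Lower was 1 of 22 (8.76% of all genes), Card9, at 86.0 and 29.8 CPM (0.346, 0.234 to 0.513). Calls were thus no more frequent in this list than among all genes of that class.

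Of 12 genes known as outputs of Syk and Card9, 9 were called higher over all kept cells and 0 lower, beside 14.3% and 10.0% of all tested genes. They included the chemokine genes Cxcl2 (113 and 3853 CPM) and Ccl3 (34.0 and 795 CPM), Il1b (81.5 and 2346 CPM) and the prostaglandin synthase gene Ptgs2 (9.95 and 366 CPM). In neutrophil-like cells 7 of 10 tested were called higher (5.91% of all genes), among them Cxcl2 (388 and 8256 CPM), while Il1b, at 3034 and 4898 CPM, had a ratio of 1.61. In Langerhans cell-like cells 5 of 6 were called higher (12.4% of all genes), with Cxcl2 at 70.6 and 2207 CPM. The background class gave a like count: in T cell-like cells 4 of 6 were called higher (4.36% of all genes), with Cxcl2 at 88.9 and 808 CPM, and in the gamma-delta T cell-like class 5 of 7 (6.25%). Without cells holding neutrophil RNA, a setting chosen for these lists after the data were seen, 4 of 5 were called higher in Langerhans cell-like cells, with Cxcl2 at 69.4 and 1693 CPM, 1 of 5 in T cell-like cells and 2 of 5 in the gamma-delta T cell-like class. In cluster 16, 4 of 4 were called higher with all cells (3.11% of all genes) and 0 of 3 without such cells. In the type 2 dendritic cell part 0 of 7 were (2.38% of all genes). Other groups had genes of this list called lower. In cluster 1, 0 of 7 were called higher (2.21%) and 2 lower (1.87%), Egr2 and Egr3. In cluster 2, 0 of 7 were called higher (2.43%) and 3 lower (1.84%), Tnf, Egr2 and Egr3. In monocyte-like cells 2 of 5 were called higher (4.08%) and 1 lower (3.08%), Tnf. In the whole type 2 class 4 of 7 were called higher (3.78%) and 1 lower (4.48%), Egr3. Many other pathways drive these genes, and their link to the receptors was not tested.

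Of the other C-type lectin receptor genes, 23 of 24 matched, and 6 were called higher and 5 lower of 22 tested over all kept cells, beside 14.3% and 10.0% of all tested genes. Clec5a, a myeloid receptor that signals through DAP12, was at 5.37 and 97.6 CPM. Clec4b1 (245 and 39.8 CPM) and the mannose receptor gene Mrc1 (715 and 268 CPM) were lower. In cluster 16 Cd209f was called higher, at 62.9 and 179 CPM (2.85, 2.22 to 3.65), a call lost without cells holding neutrophil RNA (1.29, 0.933 to 1.78), while Cd209g, at 29.0 and 49.0 CPM, had a ratio of 1.69. Cd209e was lower in the type 2 dendritic cell part, at 35.2 CPM (174 UMIs) and 1.43 CPM (1 UMI).

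The genes most like each member over the 31 class and condition profiles of at least 50 cells were sought among 11829 genes by Pearson's r of log2(CPM + 1), as a description, since profiles share depth and background. Clec4d lay nearest to Slpi (0.969), and Clec4e nearest to Clec4d. Clec4n lay nearest to Fth1, the ferritin heavy chain gene, and to Ier3 and Alas1, and neither Clec4d nor Clec4e was among its 3 nearest genes. Cd209a lay nearest to Cd209c and Cd209d. Mgl2 lay nearest to Gfra2, H2-Ab1 and Fgfr1, and Clec10a to the scavenger receptor gene Cd163. Cd207 lay nearest to Adra1a, Emp2 and Frk.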

How the data were processed

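One pooled 10x Genomics 3′ library of skin CD45+ cells was measured. The deposited matrix holds UMI counts per gene and barcode, made by the authors with Cell Ranger (6.1.1 per the submitters' processing notes, 7.0.0 per the file headers) on mm10. Its barcodes end in a suffix that the deposited aggregation table ties to the control or DPCP tag. The receptor genes, gene lists and markers were chosen with earlier results of these data known.

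Cells needed 200 genes or more and no more than 10% of UMIs from mitochondrial genes. Scrublet called 3 doublets, which were removed. That is too few of 12555 kept cells for the caller to count as having worked. Clustering (scanpy 1.11.5, Leiden resolution 1, 2000 variable genes without the members, 30 components, 15 neighbours) gave clusters. A cluster took a class name when at least 3 of its markers, and at least 50% of the list, had UMIs in at least 10% of its cells at 2-fold the median over clusters. It stayed unnamed where its leading genes were those of another class or of the cell cycle. The same held where its UMIs were low and no marker was among its leading genes. The cell cycle rule and the median as comparator were chosen after the data were seen. A difference from the study's own cell types may come from these rebuilt names. The finer clustering used Leiden resolution 2. Shares of UMIs and cells are given in percent, computed from the deposited counts.

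UMI counts were summed per condition and class and scaled to CPM. Levels have exact Poisson, shares exact Clopper-Pearson and ratios exact conditional binomial 95% intervals (scipy 1.17.1). These cover counting error only, and with 1 tagged sample per condition no test was made. Classes with at least 50 cells in each condition were compared. All members were named in every class, or summarised by counts. Of each list, counts of calls and values of the genes called or of highest counts were given, and 3 genes most like each member. The ratio procedure was tested on simulated data. TMM scaling used edgeR 4.0.16 on the deposited counts. Clec7a had no row that matched its symbol in the gene table used here. A result on the signalling list is not reported here.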

Additional observations from a re-analysis of the deposited data

Results flagged for a closer look

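Some receptors were called in opposite directions in different classes, and the difference between classes was not tested. Cd209a had a ratio of 2.61 in cluster 2 and 0.113 in T cell-like cells, Clec10a one of 3.87 in cluster 11 (5 control and 94 DPCP UMIs) and 0.183 in T cell-like cells, and Mgl2 one of 2.13 in mature dendritic cell-like cells and 0.0904 in T cell-like cells. In T cell-like cells these UMIs lay in few control cells. In cluster 11 the 10% of DPCP cells with most Clec10a held 100% of its UMIs, and without cells holding neutrophil RNA 1 control and 7 DPCP UMIs were left.

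The tag counts held a signal of the opposite tag. No main comparison used these counts, and an alternative setting kept only cells with at least 80% of tag UMIs from their own tag. The control tag made up 13.9% of the UMIs of both tags in DPCP barcodes, and the DPCP tag 2.18% in control barcodes.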

How the results depend on the processing

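No paired analysis was possible because each condition is 1 tagged sample, and for the same reason no replicate could be left out. Of 465 single ratios recomputed for 41 pairs of a gene and a class, 441 kept direction and side of the threshold, 23 kept direction and lost the call, and 1 reversed: Cd209c in cluster 2, with a log2 ratio of −0.73 with the members among the clustering genes. Of 225 counts and shares recomputed, 178 kept their value within the limits set and 47 moved. The cause was not tested where not given by the setting itself. TMM scaling shifted log2 ratios by 0.14 over all kept cells, 0.24 in neutrophil-like cells and −0.12 in cluster 11, and by under 0.1 elsewhere. Langerhans cell-like cells gave no value with the highest 5% of doublet scores removed, an alternative chosen after seeing the data, since under 50 control cells were left.

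The numbers of members called moved as follows. With at least 200 summed UMIs, which leaves fewer genes, they went to 3 in Langerhans cell-like cells (from 5), 2 in T cell-like cells (from 6), 0 in cluster 1 (from 1), 0 in cluster 16 (from 5) and 2 in mature dendritic cell-like cells (from 4). With at least 10 summed UMIs, they were 3 in cluster 12 (from 1) and 5 in cluster 4 (from 3). At Leiden resolution 0.5, they were 3 in cluster 1, 6 in cluster 4 and 5 in neutrophil-like cells (from 3). At resolution 2, they were 2 in cluster 12, 3 in cluster 2 (from 6), 8 in cluster 4 and 5 in type 2 dendritic cell-like cells (from 3). With the members among the clustering genes, they were 3 in cluster 1, 0 in cluster 12, 2 in cluster 2 and 5 in monocyte-like cells (from 3). With cells gated one by one, they were 1 in type 2 dendritic cell-like cells, 2 in the gamma-delta T cell-like class (from 6) and 8 in neutrophil-like cells. Without a cell filter, they were 0 in cluster 12, 6 in type 2 dendritic cell-like and 5 in monocyte-like cells. Without doublet removal, they were 3 in cluster 1, 0 in cluster 12 and 6 in cluster 4. That setting kept only 3 more cells but clustered all cells anew, so its values are no measure of doublets alone. With the highest 5% of doublet scores removed, they were 2 in T cell-like cells. As means over cells, they were 2 in cluster 1, 2 in cluster 12 and 3 in cluster 2. Without cells holding neutrophil RNA, they were 2 in cluster 1 and 3 in cluster 16.

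In the new clustering without doublet removal, neutrophil-like cells held 84.8% of the Clec4d, 80.9% of the Clec4e and 66.3% of the Clec4n UMIs of DPCP. Type 2 dendritic cell-like cells held 37.8% of the control Mgl2 UMIs there. At resolution 2 the type 2 dendritic cell-like class held 61.9% of the control Cd209a, 67.2% of the Cd209c, 41.0% of the Cd209d and 34.9% of the Mgl2 UMIs. Thinned to 2000 UMIs, a UMI was found in 91.3% (Clec4d), 73.1% (Clec4e) and 36.3% (Clec4n) of DPCP neutrophil-like cells, 54.5% (Clec4n) and 48.8% (Cd207) of DPCP Langerhans cell-like cells and 64.5% (Cd209a) of control type 2 dendritic cell-like cells. Thinning to 1000 UMIs left out 126 of 358 DPCP cells of cluster 11 and 0 of 56 control Langerhans cell-like cells.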
